A study of Mus musculus with 15 samples.

Results

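Colonic crypts of mice with fatty liver were compared between 2 groups that differed, by their labels, in the shRNA alone. FL-shAlpl was wild type with AAV-shAlpl and FL-shGFP was wild type with AAV-shGFP, and both were given the CDAA diet and had fatty liver. Samples were taken by label, 5 in each group, 10 of the 15 samples of the series, and every gene that passed a filter on low counts was tested, 17404 of 32939. The third group, NL-shGFP, held 5 samples of wild type mice on normal diet with normal liver and AAV-shGFP, and its values are printed beside the others. The study asked how hepatocytes signal to intestinal stem cells and what this does to blood glucose, and CDAA usually stands for a feed of defined amino acids without choline. The sources used here do not give the vector's promoter and target tissue, the strain, sex and age of the mice, the time on diet or the number of animals behind a sample. If samples of a group are not separate animals, the p-values reflect the spread between samples alone.

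Alpl encodes tissue-nonspecific alkaline phosphatase, an enzyme on the outer face of the cell membrane that removes phosphate groups and is made in liver, bone and kidney, whereas intestinal alkaline phosphatase comes from other genes. A colonic crypt is a pocket of epithelium with stem cells at its base, where Wnt signals from the tissue below keep Lgr5 and Ascl2 switched on. The daughter cells divide, move up and become absorptive colonocytes, mucus-filled goblet cells, hormone-producing enteroendocrine cells or tuft cells. Intraepithelial lymphocytes sit between the epithelial cells and can be carried along when crypts are isolated.

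The libraries held 37.5 M to 51.7 M counts in FL-shGFP and 42.1 M to 58.6 M in FL-shAlpl (exact two-sided permutation p = 0.579). Mitochondrially encoded genes took 16.7 ± 3.32% of counts in FL-shGFP and 19.9 ± 4.03% in FL-shAlpl (SD, n = 5; exact two-sided permutation p = 0.190; adjusted over these 2 tests, 0.381). Of 15 genes of epithelial and colonic identity, all were detected at summed levels of 13050 to 19060 CPM in FL-shGFP and 12070 to 18470 CPM in FL-shAlpl, among them the cell adhesion gene Epcam, the keratin gene Krt8 and the intestinal transcription factor Cdx1, so the tissue label and its markers went together. The distance between libraries, the root mean square log2 difference over the 500 genes that differ most in a pair, had a median of 2.67 within FL-shGFP, 2.76 within FL-shAlpl and 3.71 between them. FL-shAlpl replicate 1 and FL-shGFP replicate 5 were at or near the edge of their group for several crypt base genes, and results that rest on them are given with and without them. Without both, a setting chosen after seeing the data, 3198 genes were higher and 3111 lower in FL-shAlpl.

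Alpl RNA was scarce in the crypts and lower in FL-shAlpl. Its counts were 15, 14, 18, 25 and 23 in FL-shGFP replicates 1 to 5 and 6, 2, 2, 2 and 0 in FL-shAlpl replicates 1 to 5. No FL-shAlpl sample reached the lowest FL-shGFP sample (-3.16 ± 0.63, edgeR adjusted p = 0.00197). The mean of Alpl was 0.429 CPM in FL-shGFP, 0.0433 CPM in FL-shAlpl and 0.00997 CPM in NL-shGFP. It was thus lowest in NL-shGFP, which had the control shRNA. Whether the lower level in FL-shAlpl came from the shRNA acting in the crypts was not tested. Counts from 1 to 12 were mostly even in these libraries (72.4% to 77.2%), so each fragment may count as 2. The liver, where this enzyme is abundant, was not analysed here, and neither was the cell that held the Alpl RNA.

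Against FL-shGFP, FL-shAlpl crypts had more RNA of nearly all DNA replication and ribosome genes tested and of 12 of 20 stem cell and 11 of 17 Wnt genes. The stem cell and Wnt lists share members. They had less RNA of most glucocorticoid target, T and NK cell and neutrophil genes and of 11 of 20 genes of sodium and anion transport. Of 17404 genes, 6261 passed (36.0%), 3141 higher (18.0%) and 3120 lower (17.9%), at an adjusted p below 0.05 in edgeR's quasi-likelihood test with Benjamini-Hochberg adjustment over all genes tested. The falls were larger: 1709 genes were lower by at least 2-fold (9.82%) and 708 higher (4.07%), and 207 were lower by at least 8-fold against 19 higher. The median log2 fold change over all genes was 0.00, that of the genes that rose 0.69 and that of those that fell -1.11. In 2945 genes (16.9%) the CPM values of the groups did not overlap. When the 2 groups were fitted without NL-shGFP, 2001 genes were higher and 2528 lower. Throughout, a value with ± after a gene is its log2 fold change, FL-shAlpl over FL-shGFP, with the standard error, CPM is the count scaled to library size with TMM factors, n is 5 in each group, and the edgeR adjusted p is over all 17404 genes. In the list of epithelial and colonic identity 3 rose, 2 fell and 10 missed the threshold, with Epcam lower (-0.46, edgeR adjusted p = 0.0259) and Cdx1 higher (0.55, edgeR adjusted p = 0.00209) in FL-shAlpl. The call of Epcam was lost without any 1 of FL-shGFP replicates 1, 2 and 4 and FL-shAlpl replicates 1 and 4 (edgeR adjusted p from 0.0575 to 0.0692).

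**Figure D1:**
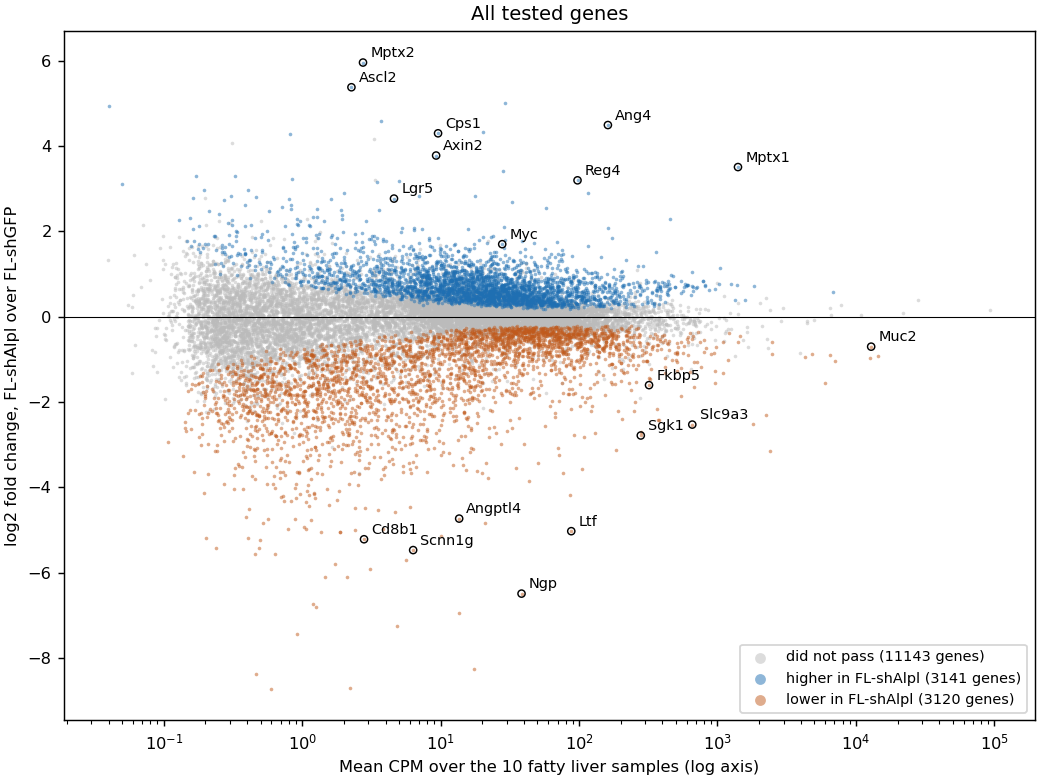
Each point is 1 of 17404 tested genes, with its mean CPM over the 10 fatty liver samples on a log axis and its log2 fold change, FL-shAlpl over FL-shGFP, on the vertical axis. Colours show the 3141 genes that were higher, the 3120 that were lower and the 11143 that did not pass, and the labelled genes are described in the text; the falls reach further than the rises at low and middle levels.

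The largest rises held genes of mucosal defence, of the crypt base and of several unrelated functions. Among the 15 largest (mean CPM of 5 or more in either group, groups not overlapping) were the mucosal pentraxins Mptx2 (5.96 ± 1.15) and Mptx1 (3.51 ± 0.61), the antimicrobial ribonuclease Ang4 (4.5 ± 0.55) and the sugar-binding lectin Itln1 (4.33 ± 0.65). The mitochondrial enzyme of the first urea cycle step, Cps1 (4.3 ± 0.73), the Wnt feedback gene Axin2 (3.78 ± 0.43) and the gasdermins Gsdmc3 (3.41 ± 0.48) and Gsdmc2 (2.91 ± 0.46) were next to them. The superoxide-producing oxidase Nox1 (2.69 ± 0.6), the phospholipase Pla2g4c (2.5 ± 0.35), the serotonin receptor Htr4 (2.05 ± 0.27) and Rims4 (3.16 ± 0.35), of a family that works in vesicle release, also rose. The largest edgeR adjusted p among the 15 was 0.0164, that of the matrix gene Hmcn1 (1.99 ± 0.58). Rims4 was even among samples, with 0.517, 1.26, 0.484, 0.774 and 0.452 CPM in FL-shGFP and 4.52, 5.98, 8.196, 6.46 and 5.99 CPM in FL-shAlpl, while NL-shGFP had 0.718 ± 0.319 CPM. All 5 FL-shAlpl samples lay above every sample of both other groups. Without FL-shGFP replicate 5 the value of Nox1 was 3.31.

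The largest falls were mostly genes of neutrophils and T cells, with a few of the epithelium. Neutrophil granule genes led them, namely Ngp (-6.49 ± 0.91) and the lactoferrin gene Ltf (-5.03 ± 0.61), with the neutrophil collagenase Mmp8 (-3.65 ± 0.59) and the protease inhibitor Stfa2 (-4.47 ± 0.82). T cell genes were the coreceptor chain Cd8b1 (-5.21 ± 0.51), the surface protein Cd6 (-4.52 ± 0.47), the receptor adapter Lat (-3.81 ± 0.42), the chemokine Ccl5 (-3.85 ± 0.55) and the granzyme Gzma (-3.79 ± 0.56). The others held Scnn1g (-5.47 ± 0.46), a subunit of the epithelial sodium channel, Angptl4 (-4.73 ± 0.44), the inhibitor of lipoprotein lipase, and Dio2 (-4.58 ± 0.74), the deiodinase that makes active thyroid hormone. The largest edgeR adjusted p among these 15 was 0.00289. The most abundant genes that fell made mucus and surface defence proteins, namely Muc2, the scavenger receptor Dmbt1 (-0.91 ± 0.19), Lypd8 (-0.97 ± 0.34), which holds bacteria off the epithelium, the membrane mucin Muc3 (-0.9 ± 0.34) and the lectin Reg3b (-1.03 ± 0.29). The most abundant that rose were Mptx1, the chaperone Hspa8 (0.76 ± 0.21), the elongation factor Eef1a1 (0.57 ± 0.2), the ribosomal protein gene Rplp0 (0.72 ± 0.23) and Tpt1 (0.38 ± 0.13), a growth-related protein. Of these abundant genes 5 lost their calls when single libraries were left out. Lypd8 did so without any 1 of FL-shGFP replicates 1, 2 and 4 and FL-shAlpl replicates 1, 3 and 4 (edgeR adjusted p from 0.0681 to 0.0881), and Muc3 without any of these or FL-shGFP replicate 3 (0.0589 to 0.122). Eef1a1 did so without FL-shGFP replicates 1, 2 or 4 or FL-shAlpl replicates 1 or 4 (0.0663 to 0.104). Rplp0 did so without FL-shGFP replicate 1 (0.0584) or FL-shAlpl replicate 4 (0.0717), and Tpt1 without FL-shGFP replicates 1 or 4 or FL-shAlpl replicates 4 or 5 (0.0506 to 0.0636). The log2 fold change was -3.51 for Dio2 without FL-shGFP replicate 4, -4.42 for Ltf without FL-shGFP replicate 1 and -7.09 for Ngp without FL-shAlpl replicate 5.

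Of the stem cell genes and of the Wnt targets tested, most rose. Of 20 stem cell genes tested, 12 rose, 1 fell and 7 missed the threshold, with a median log2 fold change of 0.59, while their summed level overlapped between the groups, at 1225 to 1590 CPM in FL-shGFP and 1426 to 1498 CPM in FL-shAlpl. Of 17 Wnt targets, 11 rose, 3 fell and 3 missed the threshold, with a median of 0.52, and 9 did not overlap. Ascl2, the transcription factor that holds the stem cell state, had 0.0431, 0, 0.181, 0 and 0.264 CPM in FL-shGFP and 6.43, 3.07, 6.03, 3.87 and 2.79 CPM in FL-shAlpl (5.38 ± 0.62, edgeR adjusted p = 7.45e-05). Every FL-shAlpl sample was more than any FL-shGFP sample, and NL-shGFP held 4.68 ± 1.33 CPM. Axin2, which is switched on by Wnt and helps to switch it off, had 0.948, 0.608, 0.665, 0.774 and 3.22 CPM in FL-shGFP and 27.8, 12.99, 20.5, 15.02 and 10.3 CPM in FL-shAlpl (3.78 ± 0.43, edgeR adjusted p = 7.85e-05). The highest FL-shGFP value was that of replicate 5 and the lowest FL-shAlpl value that of replicate 5, and the groups did not overlap. Without FL-shGFP replicate 5 the log2 fold change was 4.53 for Axin2 and 6.14 for Ascl2.

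Lgr5, a receptor and the classic marker of crypt stem cells, had 0.388, 0.284, 0.988, 0 and 4.11 CPM in FL-shGFP and 17.4, 4.87, 7.304, 6.66 and 4.08 CPM in FL-shAlpl (2.77 ± 0.77, edgeR adjusted p = 0.013). Its groups met at FL-shGFP replicate 5 and FL-shAlpl replicate 5, and 4 of 5 FL-shGFP samples lay below every FL-shAlpl sample. Without FL-shGFP replicate 5 the log2 fold change of Lgr5 was 4.22, and without that library and FL-shAlpl replicate 1 it was 3.72. Myc, a transcription factor of cell growth that Wnt drives in crypts, had 15.1, 12.9, 8.91, 11.1 and 17.5 CPM in FL-shGFP and 55.9, 40.9, 44.5, 32.1 and 39.7 CPM in FL-shAlpl (1.7 ± 0.21, edgeR adjusted p = 8.75e-05), with no overlap. Sp5, a transcription factor that Wnt induces (2.8 ± 0.46), Ephb3, a receptor that keeps cells at the crypt base (1.33 ± 0.23), the stem cell genes Cdca7 (1.8 ± 0.3) and Myb (1.41 ± 0.26) and the cyclin gene Ccnd1 (1.46 ± 0.25) rose too. The members that fell were Lef1 (-2.2 ± 0.61), Tcf7 (-0.89 ± 0.3) and Apcdd1 (-2.15 ± 0.44) of the Wnt list and Prom1 (-0.62 ± 0.19) of the stem cell list. Lef1 and Tcf7 are also made by T cells, whose markers fell in the same samples, and their part in the result was not tested. Tcf7 lost its call without any 1 of FL-shGFP replicates 1 and 2 and FL-shAlpl replicates 2, 3 and 5 (edgeR adjusted p from 0.0513 to 0.0784), and Prom1 without FL-shGFP replicate 4 (0.0572) or FL-shAlpl replicate 4 (0.0534). Smoc2 (0.69 ± 0.43, edgeR adjusted p = 0.219) and Olfm4 (1.43 ± 1.24, edgeR adjusted p = 0.388), 2 further stem cell markers, did not pass. Olfm4 stood at 32.97, 0.139, 0.266, 0.208 and 0.742 CPM in FL-shAlpl against 1.401, 0.7096, 5.32, 1.31 and 4.01 CPM in FL-shGFP, so that 1 library held almost all of it. Without FL-shAlpl replicate 1, Olfm4 fell (-2.93, edgeR adjusted p = 0.0153).

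**Figure D2:**
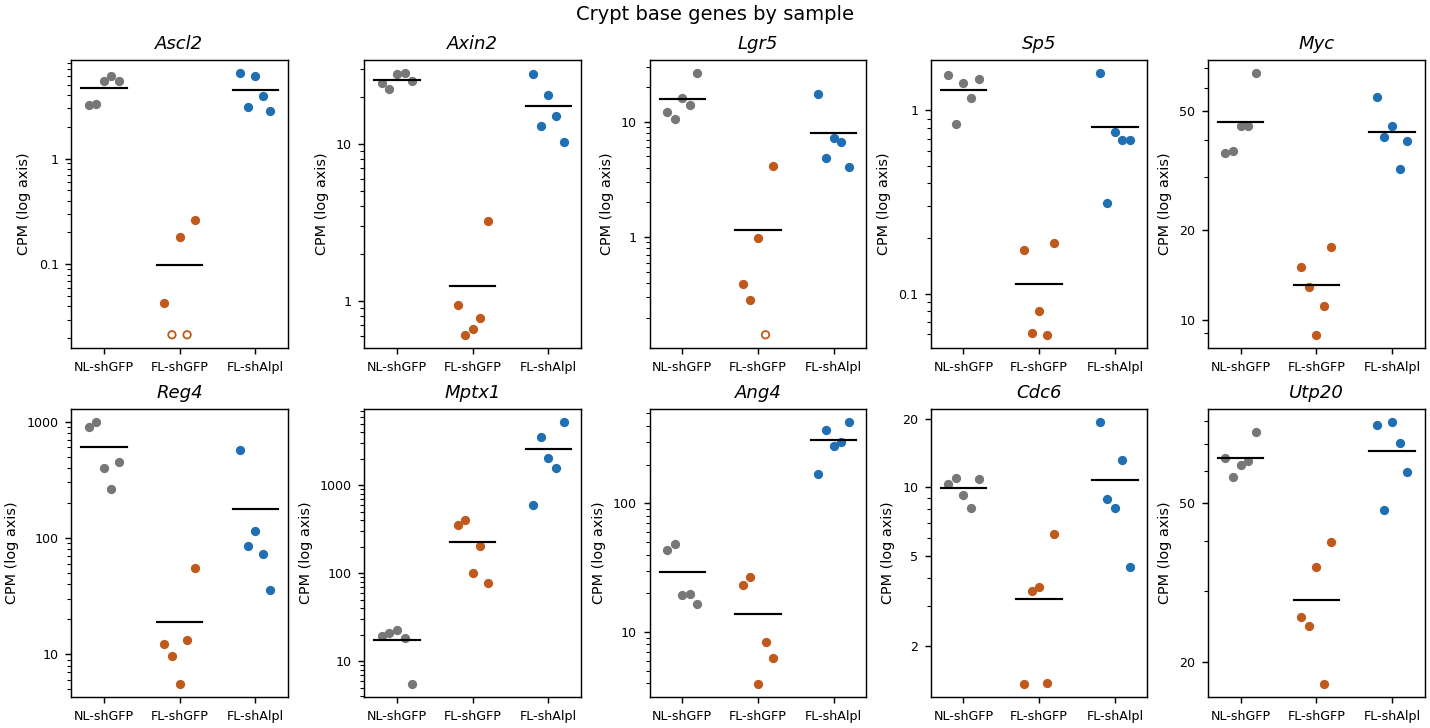
CPM on a log axis for 10 genes in the 5 samples of each group (NL-shGFP on the left, then FL-shGFP, then FL-shAlpl), with the group mean as a line and open circles, drawn at the foot of the panel, for samples at 0. For Ascl2, Axin2, Sp5, Myc, Mptx1, Ang4 and Utp20 the 5 FL-shAlpl samples lie above all 5 FL-shGFP samples, while Lgr5, Reg4 and Cdc6 touch or overlap.

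Genes of DNA replication and of ribosome making rose, and fewer mitosis genes passed. Of 24 genes of DNA replication and S phase, 23 rose, 0 fell and 1 missed the threshold, with a median of 1.33. Over the settings tried 16 to 24 of them rose, 16 with the replicate number as a block. The helicase subunit Mcm4 (1.34 ± 0.31, edgeR adjusted p = 0.00454), the nucleotide pool enzyme Dut (1.42 ± 0.33) and the replication licensing factor Cdc6 (1.74 ± 0.42) rose, and the ribonucleotide reductase subunit Rrm2 did not pass (1.08 ± 0.43, edgeR adjusted p = 0.0595). The samples within each group ranged widely, and the groups did not overlap in only 1 of these 24 genes. Cdc6 had 1.36, 3.49, 3.63, 1.37 and 6.25 CPM in FL-shGFP and 19.4, 8.903, 8.12, 13.2 and 4.45 CPM in FL-shAlpl. Of 22 mitosis genes, 9 rose, 0 fell and 13 missed the threshold, with a median of 1.24. The topoisomerase Top2a (1.4 ± 0.47, edgeR adjusted p = 0.0306), the spindle gene Prc1 (1.35 ± 0.43) and the kinase Aurka (1.31 ± 0.44) passed, and Mki67, the Ki-67 antigen of dividing cells, did not (1.09 ± 0.45, edgeR adjusted p = 0.0682). Mki67 had 118, 125, 264, 39.04 and 297 CPM in FL-shGFP and 546, 269, 343, 502 and 131 CPM in FL-shAlpl, so the groups overlapped. Mki67 passed without FL-shGFP replicate 3 (edgeR adjusted p = 0.047), FL-shGFP replicate 5 (0.0275) or FL-shAlpl replicate 5 (0.027), and Rrm2 without FL-shGFP replicates 3 or 5 or FL-shAlpl replicates 2 or 5. With all libraries Mki67 (DESeq2 adjusted p = 0.0269) and Rrm2 (0.0238) passed in DESeq2. The number of mitosis genes that passed ran from 0 to 21 over the settings tried, and it was 0 with the replicate number as a block. It was also 0 without FL-shGFP replicate 1, FL-shAlpl replicate 1 or FL-shAlpl replicate 4, 1 without FL-shGFP replicate 2, 4 without FL-shGFP replicate 4, 5 without FL-shAlpl replicate 3 and 21 without FL-shGFP replicate 5 or FL-shAlpl replicate 5. Top2a, Prc1 and Aurka lost their calls without any 1 of FL-shGFP replicate 1 and FL-shAlpl replicates 1 and 4 (largest edgeR adjusted p 0.0833, 0.0716 and 0.0914), Top2a and Prc1 also without FL-shGFP replicate 2 (0.0621 and 0.0511) and Aurka without FL-shGFP replicate 4 (0.0663). Top2a, Prc1 and Aurka lost them too with only the 2 groups fitted (edgeR adjusted p 0.0709, 0.0624 and 0.0729). With the replicate block the edgeR adjusted p was 0.0762, 0.0772 and 0.109, in that order.

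All 22 tested genes of nucleolar ribosome assembly rose (median 0.98), and 10 of them did not overlap. Utp20, of the complex that cuts the ribosomal RNA precursor, had 25.9, 24.5, 34.5, 17.6 and 39.9 CPM in FL-shGFP and 78.2, 47.9, 79.5, 70.6 and 59.8 CPM in FL-shAlpl (1.24 ± 0.19, edgeR adjusted p = 0.000358). All FL-shAlpl samples lay above all FL-shGFP samples, and NL-shGFP stood at 64.6 ± 6.37 CPM. Nolc1 (1.22 ± 0.24), Nop58 (0.9 ± 0.18) and Rrp9 (0.94 ± 0.18), which work on the same precursor, also rose. Of 26 genes of cytosolic ribosomal proteins, 24 rose, 0 fell and 2 missed the threshold (median 0.72), with Rpl7 (0.67 ± 0.16, edgeR adjusted p = 0.00468) and Rpl13 (0.83 ± 0.21) among them. With NL-shGFP left out of the fit 11 of the 26 passed, and 15 did without FL-shGFP replicate 1 or without FL-shAlpl replicate 4. Reads of these genes can be shared with their many processed copies. Of 13 mitochondrially encoded genes 0 passed in edgeR or in DESeq2, and 1 had an unadjusted edgeR p below 0.05.

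The promoter of Cdc6 is shown because its gene rose and the window holds letters that E2F factors, the regulators of S phase genes, are known to bind. The 250 bases before the start of each gene came from RefSeq (GRCm38.p6) and were searched on both strands for TTTCCCGC, which 2 of 19 S phase genes with a window held, Cdc6 and Mcm7 (1.33 ± 0.4), against 0.895% of all 32851 windows. The Cdc6 window is chr11:98907901-98908150 on the + strand, and the capitals, which begin 138 bases before the start, are the match, which lies on the other strand and so reads as the reverse complement. Mcm7 lost its call without FL-shGFP replicate 1 (edgeR adjusted p = 0.05) or FL-shAlpl replicate 4 (0.0548). A match is a description of letters and not a test of binding. The list is counted in genes, which can have several windows, and the share over all in single windows. The 2 shares are therefore not on the same base.
Cdc6: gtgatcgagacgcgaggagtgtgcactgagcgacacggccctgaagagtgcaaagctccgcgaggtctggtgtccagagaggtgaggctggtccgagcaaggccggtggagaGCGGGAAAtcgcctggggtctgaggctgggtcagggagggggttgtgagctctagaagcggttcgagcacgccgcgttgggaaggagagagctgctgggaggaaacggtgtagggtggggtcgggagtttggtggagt

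Some secretory genes of the crypt base rose, a few of them mostly in 1 library. Of 10 deep crypt secretory genes, 5 rose, 0 fell and 5 missed the threshold (median 0.48). Mptx1 had 355, 399, 100.3, 203 and 76.6 CPM in FL-shGFP and 596, 3561, 2037, 1560 and 5174 CPM in FL-shAlpl (3.51 ± 0.61, edgeR adjusted p = 0.000917). Each FL-shAlpl sample was above each FL-shGFP sample, and NL-shGFP, at 17.3 ± 6.78 CPM, was below both. Ang4 had 23.01, 26.9, 3.95, 8.33 and 6.31 CPM in FL-shGFP and 169, 375, 278, 298 and 427 CPM in FL-shAlpl (4.5 ± 0.55, edgeR adjusted p = 0.000104), again with no overlap and with NL-shGFP low (29.5 ± 15.2 CPM). Mptx1 and Ang4 were thus highest in FL-shAlpl of the 3 groups.

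Reg4, the lectin of the colon's deep crypt secretory cells, had 12.4, 9.73, 5.58, 13.2 and 54.7 CPM in FL-shGFP and 569, 85.8, 115, 73.2 and 35.6 CPM in FL-shAlpl (3.2 ± 0.79, edgeR adjusted p = 0.00684). The range within FL-shAlpl was wide, and FL-shGFP replicate 5 lay above 1 FL-shAlpl sample. FL-shAlpl replicate 1 was the highest of its group for Reg4, for the Paneth cell lysozyme Lyz1 (263 CPM against at most 14.9 in the other 4), for Cps1, Itln1, Mptx2 and Olfm4, and the lowest for Mptx1. Without it the log2 fold changes were 2.02 for Reg4, 2.93 for Cps1, 3.35 for Itln1 and 3.88 for Mptx2, all past the threshold, and 1.46 for Lyz1, which then did not pass (edgeR adjusted p = 0.242). Without FL-shGFP replicate 5 that of Reg4 was 4.11. Cps1 had 0.474, 2.07, 0.625, 0.476 and 0.923 CPM in FL-shGFP and 63.1, 7.85, 7.38, 6.29 and 6.63 CPM in FL-shAlpl (4.3 ± 0.73, edgeR adjusted p = 0.000819). The lowest FL-shAlpl sample was still above the highest FL-shGFP sample. Lyz1 (5.01 ± 1.47, edgeR adjusted p = 0.0171) is nearly identical to Lyz2, and reads of either can be counted for the other, as can reads among the gasdermin C genes or between Mptx1 and Mptx2.

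Of 19 goblet cell and mucus genes, 0 rose, 8 fell and 11 missed the threshold (median -0.72). Muc2, the mucin that forms the colonic mucus gel, had 16870, 16220, 15150, 17120 and 14400 CPM in FL-shGFP and 6495, 12910, 9520, 8942 and 11240 CPM in FL-shAlpl (-0.7 ± 0.18, edgeR adjusted p = 0.00797). No FL-shAlpl sample reached the lowest FL-shGFP sample, and NL-shGFP stood at 19510 ± 1300 CPM. The gel protein Zg16 (-1.54 ± 0.4), the goblet cell factor Spdef (-0.76 ± 0.19) and the exocytosis gene Sytl2 (-0.95 ± 0.18) fell. Atoh1, the factor that commits cells to the secretory lineage, did not pass (-0.15 ± 0.17, edgeR adjusted p = 0.535), and neither did Clca1 (-0.07 ± 0.68, edgeR adjusted p = 0.948), a secreted mucus protein, at 6567, 8874, 1164, 8227 and 709.7 CPM in FL-shGFP and 1103, 6241, 4282, 3816 and 8914 CPM in FL-shAlpl. Over all genes tested 18.0% rose and 17.9% fell. Among the tuft cell genes 2 of 14 rose, 2 fell and 10 did not pass, the tuft marker Dclk1 (-0.06 ± 0.4, edgeR adjusted p = 0.917) among the last. In 14 Notch pathway genes 3 rose, 4 fell and 7 did not pass, but 1 rose without any 1 of FL-shGFP replicates 1, 3 and 4 and 2 fell without FL-shGFP replicate 1 or 4. Hes1, the Notch target that blocks the secretory fate, was among the rises (0.6 ± 0.14, edgeR adjusted p = 0.00521), at 19.8 ± 2.67 CPM in FL-shGFP and 29.99 ± 5.82 in FL-shAlpl, with no overlap.

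Of the hormone genes 3 of 10 passed, where 36.0% of all genes tested did, and those that passed were lower in FL-shAlpl. Of 10 hormone genes of enteroendocrine cells, 0 rose, 3 fell and 7 missed the threshold (median -0.76). Somatostatin, Sst (-1.97 ± 0.42, edgeR adjusted p = 0.00295), cholecystokinin, Cck (-1.73 ± 0.45, edgeR adjusted p = 0.00835), and the tachykinin gene Tac1 (-1.51 ± 0.51, edgeR adjusted p = 0.0317) fell, and Tac1 lost its call without any 1 of FL-shGFP replicates 1 and 2 and FL-shAlpl replicates 1, 3 and 4 (edgeR adjusted p from 0.0624 to 0.0841). Gcg, the gene of proglucagon and so of the incretin GLP-1, had 189.9, 137, 81.6, 269 and 69.2 CPM in FL-shGFP and 42.7, 94.5, 72.6, 41.7 and 164 CPM in FL-shAlpl. The groups overlapped and Gcg did not pass (-0.84 ± 0.39, edgeR adjusted p = 0.101). Pyy, the satiety peptide of the same L cells, had 83.1, 97.4, 31.6, 132 and 22.8 CPM in FL-shGFP and 21.1, 42.6, 35.8, 28.7 and 57.6 CPM in FL-shAlpl and did not pass (-0.98 ± 0.39, edgeR adjusted p = 0.0633). The colonic hormone Insl5 (-0.27 ± 0.69, edgeR adjusted p = 0.788) and secretin, Sct (0.84 ± 0.5, edgeR adjusted p = 0.205), did not pass either. Gcg fell without FL-shGFP replicate 5 (edgeR adjusted p = 0.0445) or FL-shAlpl replicate 5 (0.0162), and Pyy without FL-shGFP replicate 3 (0.0283), FL-shGFP replicate 5 (0.0119) or FL-shAlpl replicate 5 (0.037). With all libraries Pyy fell in DESeq2 (DESeq2 adjusted p = 0.0251). In all, 5 hormone genes fell without FL-shGFP replicate 5 or without FL-shAlpl replicate 5.

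Of 21 further enteroendocrine genes, factors and granule proteins, 0 rose, 4 fell and 17 missed the threshold (median -0.33), where 17.9% of all genes tested fell. Cpe, the carboxypeptidase that trims prohormones, had 157, 103, 54.02, 137 and 38.4 CPM in FL-shGFP and 8.27, 23.5, 11.6, 16.4 and 23.1 CPM in FL-shAlpl (-2.56 ± 0.38, edgeR adjusted p = 0.000356). Its groups did not overlap, and NL-shGFP held 12.7 ± 2.94 CPM. The islet factors Isl1 (-1.53 ± 0.38), Pax6 (-1.21 ± 0.34) and Rfx6 (-0.65 ± 0.22) fell. Neurog3, the factor that starts the endocrine fate, was at 0.815 ± 0.726 CPM in FL-shGFP and 1.82 ± 0.961 in FL-shAlpl and did not pass (1.14 ± 0.55, edgeR adjusted p = 0.112), and neither did Neurod1 (-0.57 ± 0.22, edgeR adjusted p = 0.0589), which acts after it. The granule protein gene Chga did not pass (-0.26 ± 0.37, edgeR adjusted p = 0.609). Without FL-shGFP replicate 5 Neurog3 rose (1.75, edgeR adjusted p = 0.0162), and without FL-shAlpl replicate 1 Neurod1 fell (-0.71, edgeR adjusted p = 0.0303). With all libraries Neurod1 fell in DESeq2 (DESeq2 adjusted p = 0.0312). It also fell with upper-quartile factors (edgeR adjusted p = 0.044) or a filter of 1 CPM in 5 samples (0.0448). The call of Rfx6 was lost without any 1 of FL-shGFP replicates 2, 4 and 5 and FL-shAlpl replicates 2, 4 and 5 (edgeR adjusted p from 0.0531 to 0.0646).

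About as many surface colonocyte genes fell as did not, with the sodium uptake genes Scnn1g, Scnn1b and Slc9a3 among the falls. Of 30 colonocyte genes, 1 rose, 16 fell and 13 missed the threshold (median -0.73), and of 20 genes of sodium and anion transport, 0 rose, 11 fell and 9 missed the threshold (median -0.75). Scnn1g had 15.8, 10.8, 9.49, 20.6 and 5.25 CPM in FL-shGFP and 0.204, 0.243, 0.228, 0.562 and 0.148 CPM in FL-shAlpl (-5.47 ± 0.46, edgeR adjusted p = 2e-05). All FL-shAlpl samples lay far below FL-shGFP and near NL-shGFP (0.634 ± 0.266 CPM). The second channel subunit, Scnn1b (-1.76 ± 0.19, edgeR adjusted p = 4.38e-05), fell by less, and the third, Scnn1a, did not pass (-0.44 ± 0.25, edgeR adjusted p = 0.188).

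Slc9a3, the sodium-proton exchanger of the brush border, had 1338, 1203, 1212, 1203 and 647 CPM in FL-shGFP and 63.8, 259, 231, 202 and 217 CPM in FL-shAlpl (-2.53 ± 0.4, edgeR adjusted p = 0.000522), with no overlap. Slc26a3, the chloride-bicarbonate exchanger, had 1314, 1059, 743, 1549 and 452 CPM in FL-shGFP and 176, 423, 361, 223 and 464 CPM in FL-shAlpl (-1.64 ± 0.36, edgeR adjusted p = 0.00362). FL-shGFP replicate 5 lay within the FL-shAlpl range, below 1 of its samples. The carbonic anhydrase Car4 (-2.52 ± 0.48, edgeR adjusted p = 0.00163), the keratin of surface cells Krt20 (-1.17 ± 0.33, edgeR adjusted p = 0.0133) and the chloride channel Clcn2 (-1.07 ± 0.25) fell, while Car1 (-0.72 ± 0.36, edgeR adjusted p = 0.13) and the water channel Aqp8 (-0.77 ± 0.66, edgeR adjusted p = 0.374) did not pass. Over all genes tested 18.0% rose and 17.9% fell. Among 18 claudin and junction genes 1 rose, 4 fell and 13 missed the threshold, led by the fall of Cldn1 (-3.8 ± 0.53, edgeR adjusted p = 0.000206). The number of these that fell was 1 without FL-shGFP replicate 1, 2 without any 1 of FL-shGFP replicates 2 and 4 and FL-shAlpl replicates 1 and 3, and 9 without FL-shGFP replicate 5.

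Some alkaline phosphatases and enzymes that handle nucleotides outside the cell fell. Of 18 such genes, Alpl among them, 1 rose, 8 fell and 9 missed the threshold (median -0.67). Alpi, the intestinal alkaline phosphatase, had 36.2, 38.5, 35.8, 48.9 and 24.6 CPM in FL-shGFP and 7.397, 13.2, 23.3, 15.7 and 9.35 CPM in FL-shAlpl (-1.42 ± 0.29, edgeR adjusted p = 0.00246). The groups did not overlap, and NL-shGFP held 8.28 ± 2.43 CPM. Entpd8, which breaks down nucleotides at the surface (-1.02 ± 0.22, edgeR adjusted p = 0.00361), and the adenosine receptor Adora2a (-2.38 ± 0.38, edgeR adjusted p = 0.000466) fell too. With the replicate number as a block, or without FL-shGFP replicate 1, 5 of the 18 fell.

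Most glucocorticoid targets fell. Of 18 genes of glucocorticoid action, 0 rose, 15 fell and 3 missed the threshold (median -1.41), and 12 did not overlap. These are genes that the steroid corticosterone switches on through its receptor, and the list also holds the receptors and the enzymes that make or remove the steroid. Fkbp5, a chaperone that restrains the receptor, had 448, 348, 649, 525 and 439.8 CPM in FL-shGFP and 104, 141, 168, 174 and 208 CPM in FL-shAlpl (-1.6 ± 0.19, edgeR adjusted p = 7.85e-05). Sgk1, the kinase that keeps the sodium channel at the surface, had 432, 323, 566, 748 and 368 CPM in FL-shGFP and 21.7, 85.7, 102, 59.6 and 85.96 CPM in FL-shAlpl (-2.78 ± 0.33, edgeR adjusted p = 9.64e-05). For both genes every FL-shAlpl sample lay below every FL-shGFP sample, and NL-shGFP stood at 132 ± 19.9 CPM for Fkbp5 and 42.1 ± 1.6 CPM for Sgk1.

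Zbtb16, a transcription factor induced by glucocorticoids, had 19.1, 7.54, 23.1, 15.8 and 14.7 CPM in FL-shGFP and 1.43, 1.98, 1.58, 2.54 and 2.08 CPM in FL-shAlpl (-3.07 ± 0.31, edgeR adjusted p = 3.69e-05). Ddit4 (-1.12 ± 0.14, edgeR adjusted p = 0.000106), an inhibitor of growth signals, Tsc22d3 (-1.22 ± 0.2), known as GILZ, the phosphatase Dusp1 (-1.83 ± 0.34) and the metallothionein Mt1 (-1.46 ± 0.3) fell. The receptor genes Nr3c1 (-0.13 ± 0.1, edgeR adjusted p = 0.343) and Nr3c2 (-0.29 ± 0.26, edgeR adjusted p = 0.394) did not pass, and the enzymes Hsd11b1 (-2.3 ± 0.48), which makes active steroid, and Hsd11b2 (-0.74 ± 0.18), which removes it, both fell. Between 13 and 15 members fell over all settings tried. Some members, such as Lcn2 and the metallothioneins, also respond to inflammation, and immune genes fell in the same samples; their part in the result was not tested.

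**Figure D3:**
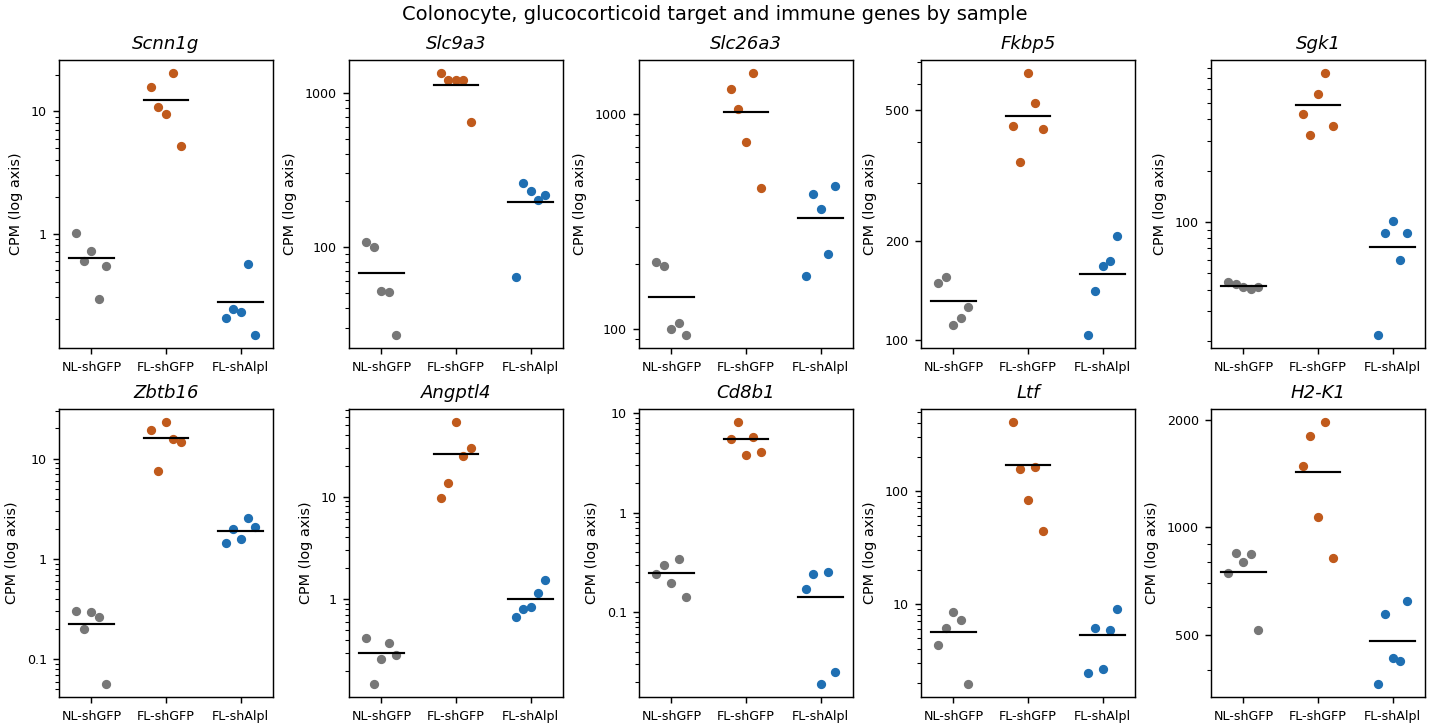
CPM on a log axis for 10 genes in the 5 samples of each group (NL-shGFP on the left, then FL-shGFP, then FL-shAlpl), with the group mean as a line. For Scnn1g, Slc9a3, Fkbp5, Sgk1, Zbtb16, Angptl4, Cd8b1, Ltf and H2-K1 all 5 FL-shAlpl samples lie below all 5 FL-shGFP samples, while 1 FL-shGFP sample of Slc26a3 lies within the FL-shAlpl range.

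More core clock genes fell than rose. Of 14 tested, 1 rose, 9 fell and 4 missed the threshold (median -0.71), the rise being that of Clock (0.52 ± 0.11), and of 9 output genes 2 rose, 4 fell and 3 missed the threshold. The repressors Cry2 (-1.47 ± 0.19, edgeR adjusted p = 0.000106) and Per1 (-1.1 ± 0.2, edgeR adjusted p = 0.00128), the activator Rora (-2.0 ± 0.3, edgeR adjusted p = 0.00029) and Ciart, a repressor that peaks sharply over the day, fell, while Arntl, which encodes the activator BMAL1, did not pass (0.12 ± 0.15, edgeR adjusted p = 0.546). Ciart had 2.76, 3.71, 4.898, 9.997 and 3.26 CPM in FL-shGFP and 1.24, 1.78, 1.04, 0.9996 and 1.01 CPM in FL-shAlpl (-2.01 ± 0.34, edgeR adjusted p = 0.000687), with no overlap. The sources used here do not give the time of day of sampling, and a difference in it between the groups was not tested.

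The promoters of Sgk1 and Ciart are shown because these 2 genes fell and their windows hold letters that the glucocorticoid receptor and the clock activators are known to bind. Of 15 glucocorticoid list genes with a window, 1 held the glucocorticoid response element (AGAACA, then 3 bases of any kind, then TGT), against 0.368% of all 32851 windows. That gene was Sgk1, which has 6 windows, and how many of them hold it was not counted. Of 11 core clock genes with a window, 3 held CACGTG, the E-box, namely Ciart, Cry1 (-0.72 ± 0.21) and Per1, against 6.02% of all windows. For both lists genes are again set beside single windows, and a gene can have several. Cry1 lost its call without FL-shGFP replicate 4 (edgeR adjusted p = 0.0506). The Sgk1 window shown is chr10:21993640-21993889 on the + strand, with a match on both strands that overlaps itself and begins 189 bases before the start. The Ciart window is chr3:95882229-95882478 on the - strand and holds 3 matches. Capitals mark the matches.
Sgk1: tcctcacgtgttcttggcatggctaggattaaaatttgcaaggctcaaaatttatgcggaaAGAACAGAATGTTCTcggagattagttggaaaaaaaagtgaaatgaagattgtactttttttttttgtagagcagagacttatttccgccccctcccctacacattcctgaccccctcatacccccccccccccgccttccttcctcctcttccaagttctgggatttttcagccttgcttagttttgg
Ciart: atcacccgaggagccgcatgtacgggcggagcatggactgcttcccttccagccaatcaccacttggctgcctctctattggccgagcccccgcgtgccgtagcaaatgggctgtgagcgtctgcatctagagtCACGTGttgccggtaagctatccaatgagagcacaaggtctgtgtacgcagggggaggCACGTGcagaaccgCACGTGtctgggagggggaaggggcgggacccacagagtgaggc

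Genes of T and NK cells and of neutrophils fell far in FL-shAlpl. Of 23 T and NK cell genes, 0 rose, 22 fell and 1 missed the threshold (median -2.99), and the same 22 did not overlap. Cd8b1 had 5.495, 8.09, 3.81, 5.802 and 4.07 CPM in FL-shGFP and 0.1701, 0.243, 0.01897, 0.2499 and 0.0247 CPM in FL-shAlpl (-5.21 ± 0.51, edgeR adjusted p = 2.94e-05). Cd3e, of the T cell receptor complex, had 9.31, 11.3, 4.25, 7.83 and 3.75 CPM in FL-shGFP and 0.901, 0.398, 0.398, 0.542 and 0.9397 CPM in FL-shAlpl (-3.52 ± 0.38, edgeR adjusted p = 4.81e-05). FL-shAlpl was below FL-shGFP in every sample for both genes, and NL-shGFP held 0.244 ± 0.0803 CPM for Cd8b1 and 1.501 ± 0.477 CPM for Cd3e. Itgae, the integrin that holds lymphocytes in the epithelium (-3.31 ± 0.38, edgeR adjusted p = 7.09e-05), and the receptor chain Trac (-3.18 ± 0.38, edgeR adjusted p = 8.06e-05) fell with them. The summed level of the tested T and NK cell markers was 163 to 470.1 CPM in FL-shGFP and 20.97 to 50.7 CPM in FL-shAlpl, and none was at 0 in all samples of a group. From bulk RNA, fewer cells of a type and less RNA per cell cannot be told apart.

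Of 14 neutrophil genes, 0 rose, 12 fell and 2 missed the threshold (median -3.02), at a summed level of 1086 to 1902 CPM in FL-shGFP and 122 to 289 CPM in FL-shAlpl. Ltf had 404, 156, 82.7, 164 and 44.6 CPM in FL-shGFP and 2.47, 6.17, 2.66, 5.89 and 9.101 CPM in FL-shAlpl (-5.03 ± 0.61, edgeR adjusted p = 0.000104). Ngp had 37.6, 6.37, 173, 71.6 and 91.3 CPM in FL-shGFP and 0.3401, 0.693, 0.0759, 1.13 and 2.13 CPM in FL-shAlpl (-6.49 ± 0.91, edgeR adjusted p = 0.000236). No FL-shAlpl sample reached an FL-shGFP sample for either gene. The calprotectin subunit S100a8 fell (-3.25 ± 0.49, edgeR adjusted p = 0.000348), and so did Ly6g (-2.42 ± 0.35, edgeR adjusted p = 0.00028), at 641 ± 241 CPM in FL-shGFP and 119.7 ± 50 in FL-shAlpl. The myeloid cytokine Il1b (-1.12 ± 0.58, edgeR adjusted p = 0.142) and the growth factor receptor Csf3r (-0.51 ± 0.42, edgeR adjusted p = 0.362) did not pass, although Il1b fell without FL-shAlpl replicate 1 (edgeR adjusted p = 0.0231), and the early granule genes Mpo and Elane were too scarce to be tested. Their counts were 2, 0, 6, 0 and 0 for Mpo and 0, 0, 4, 4 and 0 for Elane in FL-shGFP replicates 1 to 5, and 0 in all FL-shAlpl samples.

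In the macrophage, B cell, fibroblast, smooth muscle and endothelial lists most genes did not pass. That was also so over all genes tested, of which 36.0% passed and 17.9% fell. The median log2 fold changes of these lists were -1.13, -0.50, -0.37, -1.06 and -1.12, in that order. The highest value in the macrophage and dendritic cell list was -0.24. Of 20 macrophage and dendritic cell genes 0 rose, 5 fell and 15 missed the threshold (summed 307 to 887 CPM in FL-shGFP and 143 to 512 CPM in FL-shAlpl), among them the colony-stimulating factor receptor Csf1r (-1.41 ± 0.41, edgeR adjusted p = 0.0154). Of 16 B and plasma cell genes 1 rose, 1 fell and 14 missed the threshold (summed 361 to 952 CPM in FL-shGFP and 199.7 to 503 CPM in FL-shAlpl), with a fall of the light chain Igkc (-1.88 ± 0.62, edgeR adjusted p = 0.0286) and a rise of the complement receptor Cr2 (2.0 ± 0.7, edgeR adjusted p = 0.0353). Cr2 was no longer past the threshold without FL-shAlpl replicate 1 (0.82, edgeR adjusted p = 0.257) or without any 1 of FL-shGFP replicates 2, 3 and 5 (0.0652 to 0.0714). Igkc lost its call without any 1 of FL-shGFP replicates 1 and 4 and FL-shAlpl replicates 1, 3 and 4 (edgeR adjusted p from 0.0581 to 0.0787), and Csf1r without FL-shGFP replicate 4 (0.0511). Of the macrophage and dendritic cell genes 3 fell without FL-shGFP replicate 4 and 13 without FL-shAlpl replicate 5. Fibroblast genes (0 rose, 4 fell and 16 missed the threshold, of 20), smooth muscle genes (0 rose, 5 fell and 6 missed the threshold, of 11) and endothelial genes (0 rose, 5 fell and 6 missed the threshold, of 11) had summed levels that overlapped between the groups. Without FL-shAlpl replicate 5, 9 fibroblast genes fell, and without FL-shGFP replicate 4, 3 endothelial genes. Of the smooth muscle genes 2 fell without any 1 of FL-shGFP replicates 1 and 4 and FL-shAlpl replicates 1 and 4, and 3 without FL-shAlpl replicate 2. Their largest falls were those of Thy1 (-2.97 ± 0.35), which T cells also make, of the myosin Myh11 (-3.41 ± 0.66) and of the vessel receptor Tie1 (-2.14 ± 0.53). Enteric glia and neuron genes (3 of 6 fell), adipose genes (1 of 3 fell) and liver and pancreas genes (1 of 4 rose) were few. Of 6 red blood cell genes 0 passed in edgeR or in DESeq2, and 0 had an unadjusted edgeR p below 0.05. The glial list holds Erbb3 (-0.86 ± 0.14), which the epithelium also makes.

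**Figure D4:**
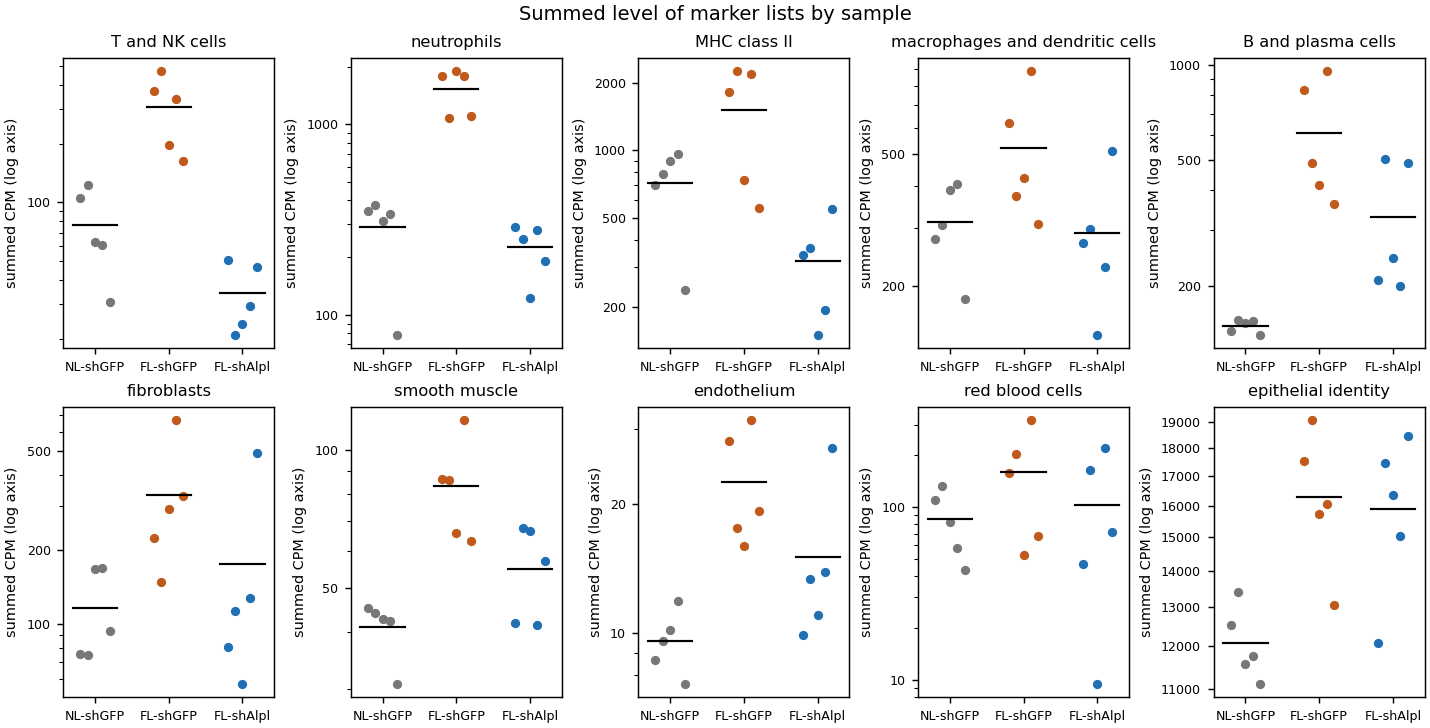
Summed CPM on a log axis of the tested markers of 10 lists in each of the 5 samples of each group (NL-shGFP on the left, then FL-shGFP, then FL-shAlpl), with the group mean as a line. T and NK cell markers run from 163 to 470.1 CPM in FL-shGFP and 20.97 to 50.7 CPM in FL-shAlpl, and the neutrophil sums do not overlap either, whereas the macrophage, B cell, fibroblast, red blood cell and epithelial identity sums overlap between the fatty liver groups.

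Most genes of antigen presentation tested fell, and a part of the inflammatory genes. Of 10 MHC class II genes, 0 rose, 6 fell and 4 missed the threshold (median -1.66), and of 19 genes of MHC class I presentation, 1 rose, 11 fell and 7 missed the threshold (median -0.92). H2-K1, a class I heavy chain, had 1483, 1800, 1066, 1965 and 819.9 CPM in FL-shGFP and 365, 572, 433, 423 and 622 CPM in FL-shAlpl (-1.56 ± 0.23, edgeR adjusted p = 0.000307), with no overlap, and the class II chaperone Cd74 fell (-2.42 ± 0.47, edgeR adjusted p = 0.00189). The H2-Q genes that fell with them, H2-Q4, H2-Q6 and H2-Q7, are near-identical and can share reads. Both epithelial and immune cells make these proteins, and T cell and neutrophil markers fell in the same samples; their part in the result was not tested.

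Of 28 NF-kB and cytokine genes, 0 rose, 11 fell and 17 missed the threshold (median -0.66), with the subunit Rel (-1.36 ± 0.15, edgeR adjusted p = 4.81e-05), the neutrophil attractant Cxcl2 (-2.88 ± 0.59, edgeR adjusted p = 0.00249) and the feedback gene Nfkbiz (-0.74 ± 0.16, edgeR adjusted p = 0.00281). Without FL-shGFP replicate 1, 7 of these fell. Of 36 interferon-induced genes 2 rose, 4 fell and 30 missed the threshold, where 18.0% of all genes tested rose and 17.9% fell. Of the 36, 8 fell without FL-shGFP replicate 3 and 10 without FL-shGFP replicate 5. The guanylate-binding protein Gbp8 fell (-2.95 ± 0.46, edgeR adjusted p = 0.000484) and the tetherin gene Bst2 rose (0.69 ± 0.16, edgeR adjusted p = 0.00413). Antimicrobial and acute-phase genes split: of 24, 5 rose, 12 fell and 7 missed the threshold. Saa3, an acute-phase protein (-3.57 ± 0.46, edgeR adjusted p = 0.000145), and Lcn2, which withholds iron from bacteria (-3.43 ± 0.59, edgeR adjusted p = 0.000843), fell, while Ang4 and Itln1 rose and Reg3g did not pass (-0.57 ± 0.37, edgeR adjusted p = 0.246), and without FL-shAlpl replicate 1 the genes of the list that rose were 3. Of 26 immediate early genes 0 rose, 14 fell and 12 missed the threshold (median -0.8), with the cytokine signal inhibitor Socs3 at 151 ± 31.7 CPM in FL-shGFP and 50.6 ± 19.9 in FL-shAlpl (-1.58 ± 0.22, edgeR adjusted p = 0.000206). Immune cells make many of the genes of these lists, and the part of their lower markers in these results was not tested.

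Growth factor and patterning genes moved in both directions. Of 16 genes of the EGF receptor family, 1 rose, 14 fell and 1 missed the threshold (median -0.86). The receptor Erbb3 (-0.86 ± 0.14, edgeR adjusted p = 0.000623) and the ligands Tgfa (-0.81 ± 0.14, edgeR adjusted p = 0.000724), Egf (-0.85 ± 0.19, edgeR adjusted p = 0.00336) and Ereg (-1.93 ± 0.48, edgeR adjusted p = 0.00741) fell, and the rise was that of Lrig1 (0.66 ± 0.23), an inhibitor of these receptors that also marks stem cells. Lrig1 lost its call without any 1 of FL-shGFP replicates 1, 2 and 4 and FL-shAlpl replicates 1 and 4 (edgeR adjusted p from 0.0715 to 0.113). With totals alone as the scaling, without FL-shGFP replicate 2 or without FL-shAlpl replicate 1, 9 of the 16 fell. Of 17 BMP and TGF-beta genes 4 rose, 6 fell and 7 missed the threshold. The decoy receptor Bambi (1.76 ± 0.24, edgeR adjusted p = 0.000155) and the inhibitor Smad6 (1.55 ± 0.31, edgeR adjusted p = 0.00213) rose. So did Id1 (1.111 ± 0.327, edgeR adjusted p = 0.0172) and Id3 (1.585 ± 0.335, edgeR adjusted p = 0.00293). Among the falls were Id2 (-1.38 ± 0.22, edgeR adjusted p = 0.00052), which blocks differentiation factors, and Smad1 (-0.73 ± 0.12, edgeR adjusted p = 0.00054), which carries the BMP signal. The BMP antagonist Grem1 fell as well (-3.944 ± 0.819, edgeR adjusted p = 0.00266). Of 15 fetal-like genes of the repairing epithelium 0 rose, 9 fell and 6 missed the threshold (median -0.97), with the surface protein Msln (-3.44 ± 0.49, edgeR adjusted p = 0.000257). Without FL-shGFP replicate 4, 4 of these 15 fell, and the value of Ereg was -1.32; without FL-shAlpl replicate 1, 5 fell.

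More genes of lipid synthesis rose than fell, while more PPAR targets fell than rose. Of 21 genes of fatty acid synthesis 8 rose, 3 fell and 10 missed the threshold, and the fatty acid synthase Fasn (0.93 ± 0.14, edgeR adjusted p = 0.000303), Acly (0.79 ± 0.1, edgeR adjusted p = 0.000102), which supplies its acetyl-CoA, and the desaturase Scd2 (1.52 ± 0.24, edgeR adjusted p = 0.000386) rose without overlap. Of 24 genes of cholesterol synthesis 9 rose, 0 fell and 15 missed the threshold, with the isoprenoid enzymes Idi1 (0.81 ± 0.18, edgeR adjusted p = 0.00357) and Mvd (0.83 ± 0.22, edgeR adjusted p = 0.00931), and 5 rose without FL-shGFP replicate 3 or without FL-shAlpl replicate 2. Of 29 PPAR targets and genes of fatty acid oxidation 1 rose, 9 fell and 19 missed the threshold. Angptl4 had 9.76, 13.6, 52.9, 24.9 and 29.96 CPM in FL-shGFP and 0.663, 0.797, 0.835, 1.15 and 1.53 CPM in FL-shAlpl (-4.73 ± 0.44, edgeR adjusted p = 2.34e-05). All FL-shAlpl samples lay below 2 CPM and all FL-shGFP samples above 9 CPM. Pdk4, which turns cells from glucose to fat, fell too (-2.98 ± 0.4, edgeR adjusted p = 0.000198).

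Bile acid and glucose genes fell in part. Of 12 bile acid genes 1 rose, 6 fell and 5 missed the threshold (median -1.02): the receptor FXR, Nr1h4 (-0.99 ± 0.12, edgeR adjusted p = 9.58e-05), the uptake carrier Slc10a2 (-2.72 ± 0.52, edgeR adjusted p = 0.0016) and both exporter subunits, Slc51a (-1.98 ± 0.33) and Slc51b (-2.09 ± 0.31), fell. Slc10a2 had 163, 165, 251, 413 and 143 CPM in FL-shGFP and 39.3, 24.4, 38.1, 26.7 and 43.2 CPM in FL-shAlpl, with no overlap. Of 22 genes of glucose transport and use 2 rose, 8 fell and 12 missed the threshold. The sodium-glucose carrier Slc5a1 (-0.86 ± 0.12, edgeR adjusted p = 0.000183) and the carrier Slc2a1 (-1.18 ± 0.23, edgeR adjusted p = 0.00181) fell, and so did G6pc, which releases free glucose (-6.1 ± 0.97, edgeR adjusted p = 0.00112), at 1.94, 0.406, 5.704, 4.08 and 2.203 CPM in FL-shGFP and 0.102, 0, 0, 0 and 0.0989 CPM in FL-shAlpl. Without FL-shAlpl replicate 1 the log2 fold change of G6pc was -6.91. Of 18 insulin and IGF genes 0 rose, 5 fell and 13 missed the threshold, with the insulin receptor substrate Irs2 (-1.31 ± 0.16, edgeR adjusted p = 8.06e-05), while 3 fell without FL-shGFP replicate 4 and 9 without FL-shAlpl replicate 5. Of 18 hypoxia genes 0 rose, 12 fell and 6 missed the threshold (median -0.75), with the glycolytic regulator Pfkfb3 (-2.38 ± 0.39, edgeR adjusted p = 0.000693) and Vegfa (-1.14 ± 0.21, edgeR adjusted p = 0.00142).

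Chaperone and amino acid genes rose in part. Of 20 heat shock genes 9 rose, 1 fell and 10 missed the threshold, with the chaperone Hsp90aa1 at 131 ± 21.7 CPM in FL-shGFP and 269 ± 85.3 in FL-shAlpl (1.04 ± 0.19, edgeR adjusted p = 0.00108) and the mitochondrial chaperone pair Hspe1 (1.31 ± 0.27, edgeR adjusted p = 0.00241) and Hspd1 (1.2 ± 0.32) among the rises. The inducible chaperones Hspa1a (-0.65 ± 0.58, edgeR adjusted p = 0.4) and Hspa1b (-0.34 ± 0.47, edgeR adjusted p = 0.592) did not pass, and the small chaperone Hspb1 fell (-2.4 ± 0.57, edgeR adjusted p = 0.00528). Of 24 genes of the endoplasmic reticulum 2 rose, 7 fell and 15 missed the threshold, with Herpud1 (-1.08 ± 0.13, edgeR adjusted p = 7.85e-05) and Xbp1 (-0.43 ± 0.11, edgeR adjusted p = 0.00627) falling. Over all genes tested 36.0% passed. Of 18 amino acid response genes 7 rose, 3 fell and 8 missed the threshold, of 22 choline and one-carbon genes 8 rose, 2 fell and 12 missed the threshold, and of 14 urea cycle and arginine genes 6 rose, 3 fell and 5 missed the threshold. The choline oxidase Chdh (0.58 ± 0.11, edgeR adjusted p = 0.00101), the folate enzyme Mthfd1 (1.28 ± 0.29, edgeR adjusted p = 0.00428), the urea cycle enzyme Otc (1.4 ± 0.3, edgeR adjusted p = 0.00287) and the polyamine enzyme Odc1 (0.96 ± 0.21, edgeR adjusted p = 0.00297) rose, and Arg2, the mitochondrial arginase, fell (-2.43 ± 0.45, edgeR adjusted p = 0.00142); without FL-shGFP replicate 3 its value was -1.80. Without FL-shAlpl replicate 1, 4 amino acid response genes rose. Of the choline and one-carbon genes 3 rose without FL-shGFP replicate 1 or FL-shAlpl replicate 4, 4 without FL-shGFP replicate 2 or 4 and 5 without FL-shAlpl replicate 1.

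The Hspe1 promoter is shown because Hspe1 and Hspd1 are neighbours that share it and both rose. The window chr1:55087898-55088147, on the + strand, holds overlapping matches to the heat shock element (GAA, any 2 bases, TTC, any 2 bases, GAA) on both strands, which begin 89 bases before the start. Of 16 heat shock genes with a window, 2 held it, Hspe1 and Hspd1, against 0.466% of all 32851 windows. For the Wnt list CTTTGAA, the TCF/LEF element, was in 0 of the 10 genes that had a window, of 17 tested, and in 4.46% of all windows. Here too genes are set beside single windows. Capitals mark the matches.
Hspe1: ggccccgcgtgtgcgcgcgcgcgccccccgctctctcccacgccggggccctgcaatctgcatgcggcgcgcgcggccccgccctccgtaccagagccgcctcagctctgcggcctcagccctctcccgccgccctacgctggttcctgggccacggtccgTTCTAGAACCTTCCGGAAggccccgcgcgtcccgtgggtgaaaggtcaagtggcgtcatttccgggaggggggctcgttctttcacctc

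Detoxification, metal and vitamin genes were mixed. Of 34 xenobiotic enzymes 4 rose, 16 fell and 14 missed the threshold, with Gsta4, which clears products of lipid oxidation (1.05 ± 0.14, edgeR adjusted p = 0.000186), among the rises and Ugt1a1, which conjugates bilirubin (-1.88 ± 0.3, edgeR adjusted p = 0.000545), and the cytochrome P450 Cyp3a25 (-4.35 ± 0.63, edgeR adjusted p = 0.000246) among the falls. Without the filter on low counts 6 of these enzymes fell, and 10, 8, 9 and 9 fell without FL-shGFP replicate 2, FL-shGFP replicate 4, FL-shAlpl replicate 1 and FL-shAlpl replicate 4, while 2 rose without any 1 of FL-shGFP replicates 1 and 4 and FL-shAlpl replicate 3. Without FL-shAlpl replicate 1 the value of Cyp3a25 was -5.02. Of 19 retinoid genes 1 rose, 9 fell and 9 missed the threshold, with the retinal dehydrogenase Aldh1a3 (-2.0 ± 0.35, edgeR adjusted p = 0.000894). Of 15 zinc genes 1 rose, 7 fell and 7 missed the threshold, with the zinc carriers Slc30a2 (-3.09 ± 0.34, edgeR adjusted p = 5.35e-05) and Slc39a4 (-0.82 ± 0.13, edgeR adjusted p = 0.000598), 4 falling without FL-shGFP replicate 4, and of 12 iron genes 2 rose, 4 fell and 6 missed the threshold, with the haem oxygenase Hmox1 (-1.26 ± 0.26, edgeR adjusted p = 0.00239). Of 7 gasdermins 3 rose, 2 fell and 2 missed the threshold. Gsdmc2 had 43.6, 29.2, 9.86, 34.1 and 18.5 CPM in FL-shGFP and 173, 219, 346, 53.2 and 227 CPM in FL-shAlpl (2.91 ± 0.46, edgeR adjusted p = 0.000545), with no overlap, and NL-shGFP held 299 ± 111 CPM. Of 25 nuclear genes of the respiratory chain 5 rose, 0 fell and 20 missed the threshold, and of 11 small intestine and Paneth genes 2 rose, 4 fell and 5 missed the threshold. Over all genes tested 18.0% rose and 17.9% fell. Of the respiratory chain genes 2 rose without FL-shGFP replicate 1 or 4, 3 without any 1 of FL-shAlpl replicates 2, 3 and 4, and 11 without FL-shGFP replicate 2.

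**Figure D5:**
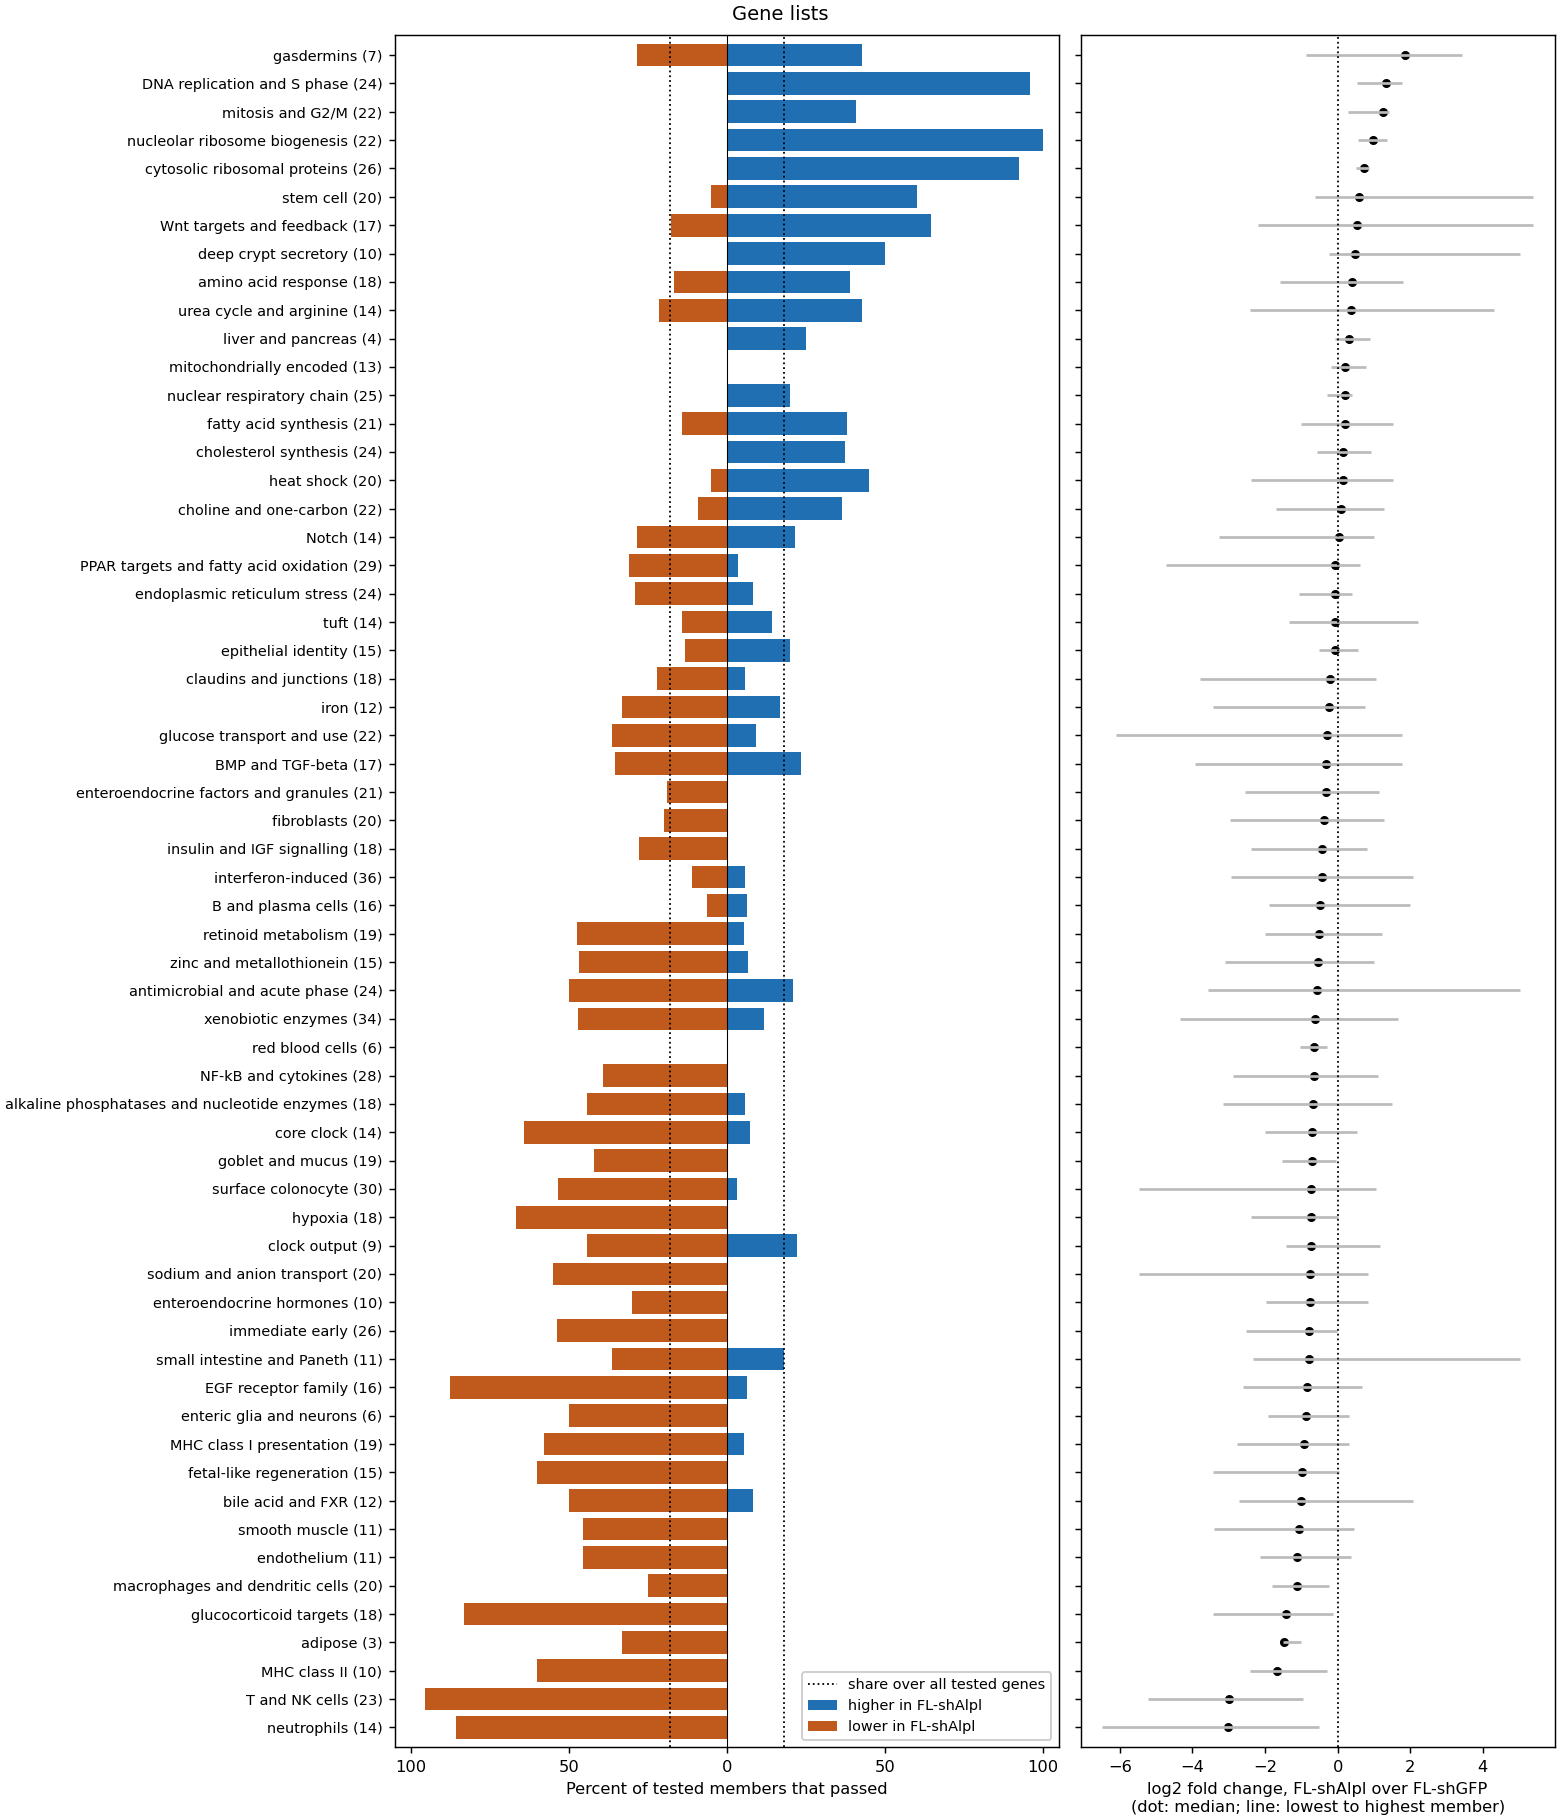
For 60 gene lists, with the number of tested members in brackets, the left panel gives the percent of members that were higher or lower in FL-shAlpl, with dotted lines at the share over all 17404 genes (18.0% and 17.9%), and the right panel the median log2 fold change and the range over members. By the median, the gasdermin, S phase, mitosis, nucleolar and ribosomal protein lists lie at the upper end, and the neutrophil, T and NK cell and MHC class II lists lie toward the lower end.

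The NL-shGFP values stand beside those of both fatty liver groups, which were each tested against NL-shGFP with the same samples, so these comparisons share libraries with one another. For Ascl2 the log2 fold change over NL-shGFP was -5.46 in FL-shGFP and -0.08 (edgeR adjusted p = 0.935) in FL-shAlpl. For Lgr5 these were -3.74 and -0.97 (edgeR adjusted p = 0.383), and for Sgk1 3.53 and 0.75 (edgeR adjusted p = 0.112). Mptx1 stood at 3.72 and 7.23 (edgeR adjusted p = 4.31e-05), and Cd8b1 at 4.45 and -0.76 (edgeR adjusted p = 0.339). Muc2 stood at -0.29 and -0.99 (edgeR adjusted p = 0.00192). In FL-shAlpl, then, Mptx1 was above NL-shGFP and Muc2 below it.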

How the data were processed

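RNA of colonic crypts was sequenced in 15 samples, 5 a group. Columns were used to purify the RNA and mRNA was enriched, per the labels' protocols, and HISAT2 is named in the submitters' processing notes. The authors deposited integer counts per gene and FPKM, the latter used here in alternatives only. The sources used here do not give how reads were counted, on which build, with which annotation or strand setting, so antisense and overlapping genes cannot be told apart. edgeR 4.0.16 (R 4.3.3) fitted a quasi-likelihood model (robust, TMM) with 1 mean per group to all 15 libraries and 17404 genes that passed filterByExpr, with 12 residual degrees of freedom, two-sided, Benjamini-Hochberg adjusted. In many of the lists NL-shGFP replicates 1 and 2, and 3 and 4, lay close together. Summed xenobiotic enzymes were 3779, 3882, 2158, 2198 and 1976 CPM in NL-shGFP replicates 1 to 5. Summed fibroblast markers were 75.65, 75.09, 167.7, 168.7 and 94.13 CPM in replicates 1 to 5, and T and NK cell markers 105.2, 122.4, 62.82, 60.64 and 30.68 CPM. Whether these libraries are independent was not tested. The fit counts them as 5 replicates, and if they are not, its adjusted p-values are too small. The BCV was 30.2%. In simulated counts of 17159 genes, 50 were changed at each of 1.5, 2, 4 and 8 times and the rest were left unchanged. The fit recovered 8%, 48%, 72% and 96% of them. In FL-shAlpl against FL-shGFP 36.0% of genes passed, and recovery with so many changed genes was not tested. Other normalizations, filters, DESeq2 1.42.0, limma 3.58.1, the replicate block and each library left out were alternatives.

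Genes and lists were chosen with earlier results of these data known. Named genes are 25 key genes, the 15 largest rises and falls (called, mean CPM of 5 or more in either group, groups not overlapping; predicted genes, receptor segments and pseudogenes left out), up to 4 passing and 2 other members of each of 60 lists, and the 5 most abundant called genes in each direction. Apcdd1, Lef1, Tcf7, Prom1, Lrig1, Ccnd1, Clock, Cry1, Mcm7, Hspd1, Clcn2, Scnn1a, Epcam, Hspa1a, Hspa1b, Hsd11b1 and Hsd11b2 were added after their values were seen. Grem1, Id1 and Id3 were added likewise. The counts of named genes that kept or lost their calls leave these last out. Some genes that the rule names are not reported here. Lists share members, for example Per1, Pdk4, Lcn2 and Sgk1. Promoter windows came from RefSeq GRCm38.p6.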

Additional observations from a re-analysis of the deposited data

Results flagged for a closer look

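In 32 of 360 groups of 5 values (the genes named by rule, total counts and the mitochondrial share, in FL-shGFP and in FL-shAlpl), 1 sample stood apart by Dixon's criterion, in which its gap to the nearest other sample is more than 0.71 of the range of the group. Chance gives about 1 in 20 of such groups. FL-shAlpl replicate 1 was high for Adora2a at 0.884, Cps1 at 63.1, Cr2 at 1.75, Csf3r at 17.04, Il1b at 56.0, Itln1 at 114, Lgr5 at 17.4, Lyz1 at 263, Mptx2 at 21.9, Nop58 at 121, Olfm4 at 33.0 and Reg4 at 569 CPM and was low for Slc9a3 at 63.8 CPM. FL-shGFP replicate 5 was high for Axin2 at 3.22, Bambi at 2.07, Htr4 at 4.99, Lgr5 at 4.11 and Reg4 at 54.7 CPM and was low for Slc9a3 at 647 and Socs3 at 95.9 CPM. FL-shGFP replicate 4 was high for Dio2 at 28.1, Egf at 10.5, Ereg at 31.2, Mt1 at 786 and Neurod1 at 4.02 CPM. FL-shAlpl replicate 3 was high for Ereg at 7.48 and Gsta4 at 73.0 CPM. FL-shAlpl replicate 4 was high for Mvd at 75.7 and Scnn1g at 0.562 CPM. FL-shGFP replicate 2 was high for Cps1 at 2.07 CPM. FL-shAlpl replicate 2 was low for Acly at 260.0 CPM. FL-shAlpl replicate 5 was high for Sst at 5.07 CPM. The other 4 samples of FL-shAlpl held 0.139 to 0.742 CPM of Olfm4 and 0.266 to 14.9 CPM of Lyz1. The causes were not tested.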

How the results depend on the processing

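The 3141 genes higher and 3120 lower became 2001 and 2528 when only the 2 groups were fitted, 1405 and 1677 at an adjusted p below 0.01, and 708 and 1709 when a change of at least 2-fold was asked as well. With single libraries left out, the higher genes ran from 2232 (without FL-shGFP replicate 1) to 3681 (without FL-shGFP replicate 5) and the lower from 2373 (without FL-shGFP replicate 4) to 3477 (without FL-shGFP replicate 5). No gene called in both fits changed direction under any of the 23 alternative fits. The share of calls that were higher ran from 44.2% (upper-quartile factors and the fit of only the 2 groups) to 54.6% (totals alone), and the median over all genes moved to at most 0.0785. With the replicate number as a block 2425 were higher and 2649 lower, of which 2379 and 2592 were shared. The labels do not say that a number pairs samples, and 0 of 5 pairs deviated together by a correlation over 0.1 and 1 of 5 samples correlated best with its own number. Without FL-shGFP replicate 5 and FL-shAlpl replicate 1, chosen after seeing the data, 3198 and 3111 were called, 2799 and 2761 of them shared.

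The difference in total counts (2.37 M) ran from -0.0508 M (without FL-shAlpl replicate 2) to 4.08 M, and that in the mitochondrial share (3.22 percentage points) from 2.14 to 4.50. Of 168 named genes that passed, 146 did so under every alternative that gave them a test (12 of the 195 named genes had 21 or 22 of the 23) and 22 lost the call under at least 1; of 27 that did not, 8 passed under at least 1. When only the 2 groups were fitted, the calls of Aurka, Eef1a1, Epcam, Igkc, Lrig1, Lypd8, Mcm7 and Muc3 were lost. So were those of Prc1, Prom1, Rfx6, Rplp0, Tac1, Tcf7, Top2a and Tpt1. With the replicate block the calls of Aurka, Cr2, Eef1a1, Epcam, Lrig1, Lypd8 and Lyz1 were lost. Those of Mcm7, Muc3, Prc1, Rfx6, Top2a and Tpt1 were lost there as well. For 4 genes the sign changed. Olfm4 (1.43) was at -1.98 with voom weights, -0.74 on log2(FPKM + 0.1), -1.62 with the replicate block, from -2.93 to 1.88 with single libraries left out and at -2.71 without the 2 libraries. Clca1 was at 0.044 with totals alone, 0.189 with voom, 0.354 and 0.355 on log2(FPKM + 1) and log2(FPKM + 0.1), 0.404 with the replicate block and from -0.3998 to 0.229 with single libraries left out. Dclk1 was at 0.0282 with totals alone, 0.0518 with voom, 0.00884 and 0.0046 on the log2 FPKM scales and from -0.404 to 0.242 with single libraries left out. Insl5 was at 0.18 and 0.208 on the log2 FPKM scales and from -0.817 to 0.0237 with single libraries left out. The cause was not tested. Genes with few counts, such as Alpl, are limited by depth.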
